A study of Mus musculus with 8 samples.

Results

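The FGF genes described here are 9 genes chosen by name: the receptors Fgfr1, Fgfr2 and Fgfr3, the ligands Fgf2 and Fgf7, and the feedback inhibitors Spry1, Spry2, Spry4 and Dusp6. They were followed through every probe whose platform symbol is one of these names, which gave 15 probes for 8 of the 9 genes, out of 19057 genes with a named probe. No probe is annotated to Spry1 in the table used here, so Spry1 was not analysed. Expression was measured on 8 Illumina arrays of cells from C57BL/6J mice. The undifferentiated cells, mesenchymal stem cells (MSCs) of adult bone marrow, were measured on an array whose title ends in d0 and on another whose title ends in p4. For each of 3 lineages there was 1 array of differentiated cells and 1 of reprogrammed cells. The differentiated adipocytes carry d7 in the title, the osteocytes d21 and the chondrocytes d28, while all reprogrammed cells carry p1. All 8 carry the same strain and the same marrow source, and neither the agents used for differentiation and reprogramming nor the meaning of d and p is given in the sources used here. Nothing says that arrays came from separate cultures, so each p-value measures the spread between these arrays, with the 3 lineages standing as the replicates of a state.

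Fibroblast growth factors are secreted proteins that bind receptor tyrosine kinases together with heparan sulfate and switch on the Ras-MAPK cascade, which ends in the kinase ERK. Sprouty proteins and the ERK phosphatase Dusp6 are made in answer to that signal and damp it. Fgf2 is widely used to keep MSCs dividing in culture, Fgf7 (keratinocyte growth factor) is a product of mesenchymal cells that acts on the IIIb splice form of Fgfr2, and Fgfr1, Fgfr2 and Fgfr3 each have known roles in bone and cartilage growth. The probe annotation does not tell the splice forms of Fgfr2 apart.

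Values are the deposited log2 values, in which every array has a median of 3.901. A log2 value of 6 was taken as the lower limit of a usable level, and 12610 of 45281 probes reached it on each array. Of the 8 genes with a probe, Fgfr1, Fgfr2, Fgf7 and Dusp6 reached it on at least 2 arrays and were tested. Fgfr3, Spry2 and Spry4 reached it on 1 array each, and Fgf2 on none. The 4 arrays with a d in the title had 4317 to 5204 probes at 0, and the 4 with a p had 6815 to 7652. Differentiated and reprogrammed cells lie in different ones of these array sets, linked only by an MSC array on either side. Fits that block on the set are given for some contrasts of the 4 tested genes and of the pathway gene Egr3. The labelled identities were checked against markers. All 7 adipocyte markers reached a log2 value of 6 on the differentiated adipocyte array, against 2 to 4 on the others. On the differentiated chondrocyte array 3 of 7 cartilage markers reached it, with Acan at 5.66 and Comp at 3.93, against 2 of 7 on both MSC arrays and all reprogrammed arrays. Their summed linear level there was 2528, against 1728 on MSC d0 and 2110 on the reprogrammed chondrocytes, and Col2a1 at 9.15 was lower than on the reprogrammed arrays (9.74 to 10.41). On the same array 4 of 7 bone markers reached it, with a summed linear level of 13268 against 191 to 1302 elsewhere. The differentiated osteocyte array had 2 of 7 bone markers at that level, a summed linear level of 562 (707 and 782 on the MSC arrays), and the osteocyte genes Dmp1 and Sost at 2.61 and 1.31. Of 6 MSC markers with a probe, 3 to 5 reached 6 on every array. Pdgfra, at 9.53 to 12.73, and Vcam1, at 9.52 to 11.05, were high throughout, while Thy1 stayed between 0 and 3.38 and Eng passed 6 on the differentiated chondrocyte array alone.

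**Figure D1:**
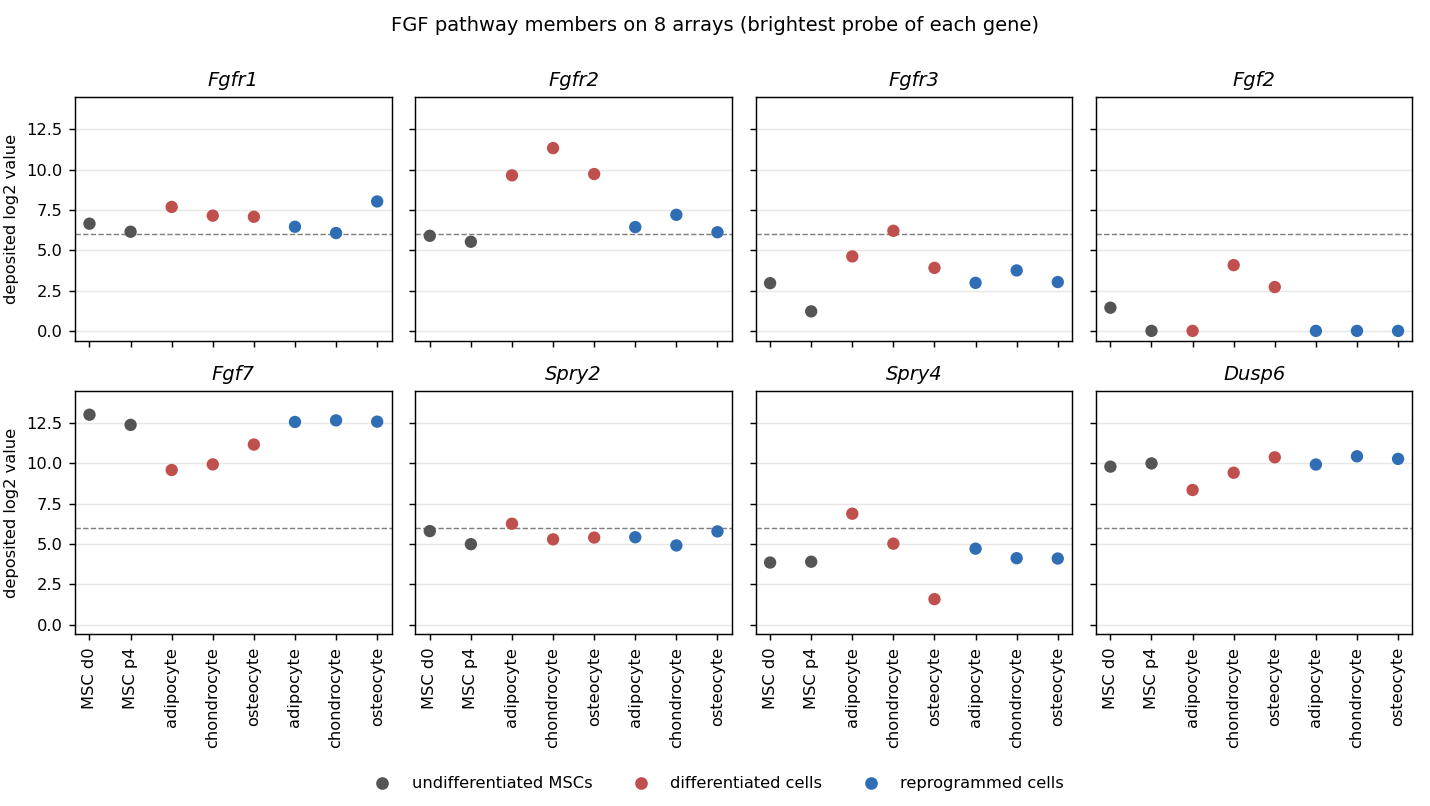
Deposited log2 values (y axis) of the brightest probe of each of 8 genes on 8 arrays (x axis), 1 point per array, coloured by state, with the log2 value of 6 as a dashed line. The 3 differentiated arrays stand between 9.65 and 11.34 for Fgfr2 and between 9.59 and 11.17 for Fgf7, above all other arrays for Fgfr2 and below all others for Fgf7.

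Fgfr2 and Fgf7 had the widest range of the 4 tested genes across the arrays, and they ran in opposite directions. The bases before their start sites are shown with those of Dusp6, which varied less, to set the 3 genes side by side. The sequences are RefSeq's, of build GRCm38.p6, each of 250 bases that end just before the annotated start of the gene, written 5′ to 3′ on the gene's strand with every CG pair in capitals. The Fgfr2 window is chr7:130266809-130267058 on the minus strand, the Fgf7 window chr2:126034408-126034657 on the plus strand and the Dusp6 window chr10:99262981-99263230 on the plus strand.
Fgfr2: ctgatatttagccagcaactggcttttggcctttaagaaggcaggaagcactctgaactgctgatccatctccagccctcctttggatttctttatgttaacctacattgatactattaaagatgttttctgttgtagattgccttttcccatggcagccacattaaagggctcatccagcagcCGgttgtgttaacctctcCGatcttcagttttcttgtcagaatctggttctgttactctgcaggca
Fgf7: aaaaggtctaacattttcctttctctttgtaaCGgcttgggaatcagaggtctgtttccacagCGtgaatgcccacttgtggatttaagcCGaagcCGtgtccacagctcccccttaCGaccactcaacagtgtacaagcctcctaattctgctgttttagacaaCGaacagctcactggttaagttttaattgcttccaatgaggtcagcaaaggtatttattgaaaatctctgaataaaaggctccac
Dusp6: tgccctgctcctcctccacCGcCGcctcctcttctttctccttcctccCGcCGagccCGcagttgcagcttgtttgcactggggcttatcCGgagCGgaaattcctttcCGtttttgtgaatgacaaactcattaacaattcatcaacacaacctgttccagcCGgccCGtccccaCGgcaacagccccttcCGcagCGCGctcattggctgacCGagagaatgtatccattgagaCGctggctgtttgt
The Fgfr2 window held 2 CG pairs at 44.0% G and C, the Fgf7 window 6 at 43.6% and the Dusp6 window 16 at 56.4%. Over all 32851 such windows the medians were 6 pairs and 52.4%. The windows were searched on both strands for 6 motifs: AGAACA (glucocorticoid receptor), CCGGAAG (ETS factors), TGANTCA (AP-1), TGTGGT (RUNX), TGACGTCA (cAMP response element) and TATAAA (the core promoter box of that name). The shares of all windows that hold them are 16.1%, 6.91%, 6.75%, 14.0%, 1.55% and 12.4%. None of the 6 was found in the windows of Fgfr2, Fgf7 or Dusp6, which says only that these letters are not there. Other start sites of these genes were not looked at.

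Among the receptors, Fgfr2 was high in all differentiated cells and low in MSCs and reprogrammed cells. Its brightest probe read 5.90 and 5.53 on MSC d0 and MSC p4. It read 9.65, 11.34 and 9.73 on the differentiated adipocytes, chondrocytes and osteocytes, and 6.44, 7.20 and 6.12 on the reprogrammed adipocytes, chondrocytes and osteocytes. The differentiated arrays did not overlap with any other array, and both MSC arrays were under 6.

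Reprogrammed cells were set against differentiated cells, the comparison that the series title names. Differences are given on the scale log2(value + 16), where value is the unlogged deposited level, because the added 16 damps noise among dim probes. It understates the change of dim genes. Fgfr2 fell by 3.45 (SE 0.48; limma, adjusted p = 0.032; 3 arrays against 3), from a mean of 10.26 ± 0.94 to 6.81 ± 0.48 (SD, n = 3 each), or 10.9-fold. It was 1 of 4 tested members called, where limma called 54 of 8317 genes (0.649%), and it ranked 28 among the largest falls. The call ended in the fit that blocks on the array set (-3.16, adjusted p = 0.9996), in which no gene of 8317 was called and 170 had an unadjusted p under 0.05. It ended with lineage as a block (-3.45, adjusted p = 0.052). It also ended without reprogrammed adipocytes (-3.38, adjusted p = 0.187), chondrocytes (-3.71, adjusted p = 0.115) or osteocytes (-3.25, adjusted p = 0.16). The direction was the same in all of these. The 54 calls over all genes became 2 without any 1 of the reprogrammed arrays and 216 without differentiated adipocytes. In such bulk samples, fewer cells of a type and less RNA per cell cannot be told apart.

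Between differentiated cells and MSCs the difference of Fgfr2 was larger, at 4.16 (SE 0.53; 3 arrays against 2), at least 15.3-fold, but its adjusted p of 0.0521 missed the threshold. It ranked 8 among the positive differences of 8317 genes. Limma called none of the 4 tested members here, and 2 of them, Fgfr2 and Fgf7, had an unadjusted p under 0.05, as did 10.4% of all genes. It called 5 genes in all (0.0601%), and 57 without differentiated adipocytes. Fgfr2 passed without differentiated adipocytes (4.45, adjusted p = 0.0206) and without differentiated chondrocytes (3.62, adjusted p = 0.0404). Within the d arrays, where the reference is MSC d0 alone, the difference was 4.02 (adjusted p = 0.465). Because both MSC arrays are dim for this probe, at least N-fold sets the brighter mean against 6.32, the level of 6 on the offset scale.

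Fgfr2 on the reprogrammed arrays stood 0.71 above MSCs (SE 0.53; adjusted p = 0.9998), and no gene was called in that contrast (0%). Of the 8317 genes 27 had an unadjusted p under 0.05, and none of the 4 members did. In the order of arrays, the residual SD (0.58) is given for scale only, here and for the genes below. It is built from the spread between the lineages of a state, so it cannot judge gaps between lineages. The differentiated chondrocytes stood above the differentiated osteocytes by 1.59, and these above the differentiated adipocytes by 0.08. The next gaps were 2.33 down to the reprogrammed chondrocytes and 0.67 down to the reprogrammed adipocytes, after which neighbours differed by 0.17 to 0.29. The array with the highest Fgfr2 is also the one with the bone markers given above, and their part in the result was not tested. Of 4 epithelial markers, Epcam was at 0 on all 3 differentiated arrays, Krt8 reached at most 4.03 and Krt18 4.37 there, and Cdh1 alone reached 6, at 6.30 on the osteocytes.

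The other Fgfr2 probes were dimmer. ILMN_2609887 read 3.44 and 1.64 on the MSC arrays, 5.82, 7.25 and 5.77 on the differentiated adipocytes, chondrocytes and osteocytes, and 4.10, 4.61 and 3.90 on the reprogrammed ones. ILMN_1229167 stayed between 2.61 and 4.57. ILMN_2646078 ran from 0 to 4.26. The first of these reached 6 on the differentiated chondrocytes alone and the other 2 on no array, so no order was read from them. Probes of 1 gene read the same RNA and are not replicates.

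**Figure D2:**
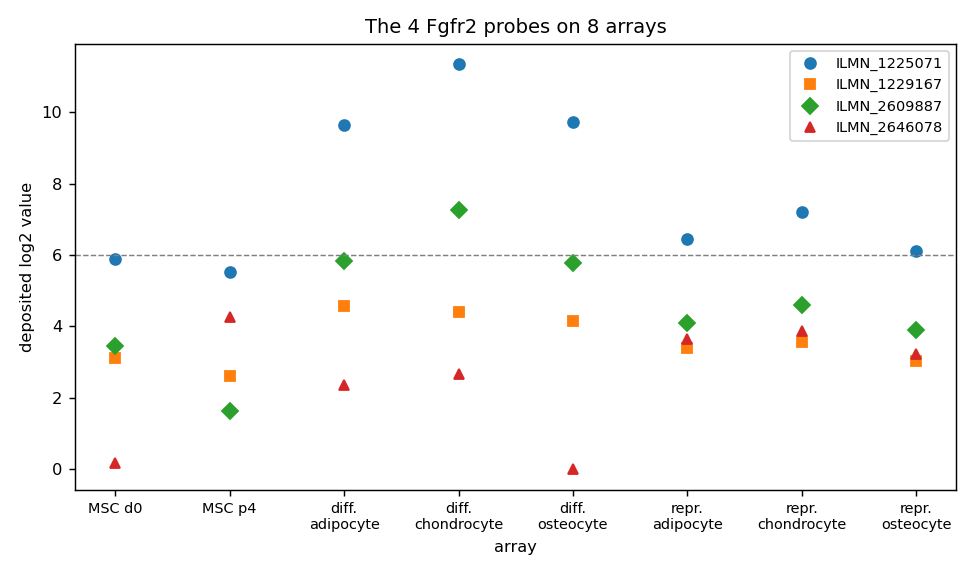
Deposited log2 values (y axis) of the 4 Fgfr2 probes on each array (x axis; diff. is differentiated, repr. is reprogrammed), with the log2 value of 6 as a dashed line. The brightest probe, ILMN_1225071, reads 9.65 to 11.34 on the differentiated arrays; of the other 3, only ILMN_2609887 passes 6, at 7.25 on the differentiated chondrocytes.

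Fgfr1, the main FGF receptor of many mesenchymal cells, was called in no state contrast. Its brighter probe read 6.65 and 6.15 on MSC d0 and MSC p4. It read 7.69, 7.15 and 7.08 on the differentiated adipocytes, chondrocytes and osteocytes, and 6.46, 6.07 and 8.03 on the reprogrammed adipocytes, chondrocytes and osteocytes. The differentiated arrays lay above both MSC arrays, while the reprogrammed osteocytes, the highest of all 8, stood apart from the other 2 reprogrammed arrays. Differentiated cells differed from MSCs by 0.79 (SE 0.50; adjusted p = 0.619), and reprogrammed cells from differentiated cells by -0.38 (SE 0.45; adjusted p = 0.652) and from MSCs by 0.41 (SE 0.50; adjusted p = 0.9998). The difference of -0.38 rested on single arrays: it was -0.91 without reprogrammed osteocytes (adjusted p = 0.222), -0.036 without reprogrammed chondrocytes (adjusted p = 0.979), and -0.20 without reprogrammed adipocytes (adjusted p = 0.888) or differentiated adipocytes (adjusted p = 0.826). Each gap between neighbours in the order of arrays was 0.50 or less, under the residual SD of 0.55. The other Fgfr1 probe stayed under 6, between 0 and 4.89.

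Fgfr3, which restrains growth plate cartilage, reached the level of 6 on the differentiated chondrocyte array alone. That array read 6.21. The MSC arrays read 2.96 and 1.21, the differentiated adipocytes and osteocytes 4.62 and 3.91, and the reprogrammed adipocytes, chondrocytes and osteocytes 2.98, 3.75 and 3.03. With every other array under 6, the chondrocyte value supports only an at least 1.13-fold difference from MSCs. The second Fgfr3 probe stayed under 6, between 0.52 and 4.64.

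Of the ligands, Fgf7 showed the reverse of the Fgfr2 pattern. It read 13.02 and 12.39 on MSC d0 and MSC p4. The differentiated adipocytes, chondrocytes and osteocytes read 9.59, 9.94 and 11.17, and the reprogrammed adipocytes, chondrocytes and osteocytes 12.57, 12.67 and 12.59. All 3 differentiated arrays lay below the other 5, and the reprogrammed arrays fell between both MSC arrays. Fgf7 is read by 1 probe.

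On the offset scale Fgf7 in differentiated cells differed from MSCs by -2.46 (SE 0.45; adjusted p = 0.155), a 5.50-fold lower level, and ranked 32 among the negative differences of 8317 genes. Reprogrammed cells were 2.36 above differentiated cells (SE 0.41; adjusted p = 0.0562), or 5.14-fold, which missed the threshold. This difference passed without differentiated osteocytes (2.82, adjusted p = 0.0191), without differentiated adipocytes (2.04, adjusted p = 0.0455), with an offset of 64 (2.31, adjusted p = 0.0496) and with all probes in the fit (2.36, adjusted p = 0.048). In the fit that blocks on the array set it was 2.99 (adjusted p = 0.9996), and the difference of differentiated cells from MSCs was -2.77. Against MSCs the reprogrammed cells differed by -0.10 (SE 0.45; adjusted p = 0.9998). In the order of arrays, the top 5 neighbours differed by 0.35 or less, under the residual SD of 0.50, then came a gap of 1.22 to the differentiated osteocytes and a further 1.22 to the differentiated chondrocytes, which lay 0.34 above the adipocytes.

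**Figure D3:**
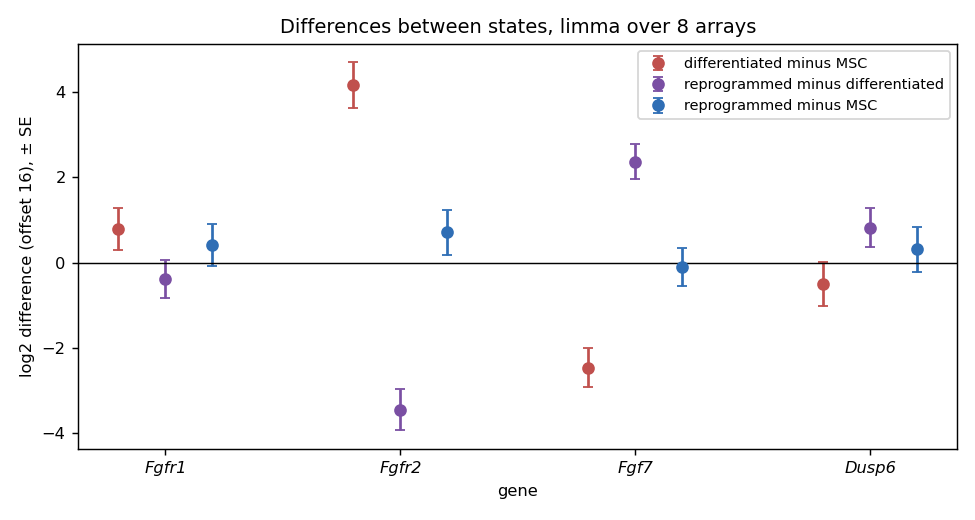
Log2 differences on the offset scale (y axis) between the 3 states for the 4 tested genes (x axis), with bars of 1 SE from limma over 8 arrays. Fgfr2 stands at 4.16 in differentiated minus MSC and -3.45 in reprogrammed minus differentiated, Fgf7 at -2.46 and 2.36, and both lie within 0.71 of 0 in reprogrammed minus MSC.

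Fgf2 did not reach a usable level. It was listed at 0 on MSC p4, on the differentiated adipocytes and on all 3 reprogrammed arrays, and read 1.44 on MSC d0, 4.08 on the differentiated chondrocytes and 2.72 on the differentiated osteocytes. All of these are under 6, so no order can be read from them.

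Among the feedback inhibitors, Dusp6 was well above the level on every array and was called in no state contrast. Its brightest probe read 9.80 and 10.00 on MSC d0 and MSC p4. The differentiated adipocytes, chondrocytes and osteocytes read 8.35, 9.42 and 10.38, and the reprogrammed adipocytes, chondrocytes and osteocytes 9.93, 10.44 and 10.28. The differentiated adipocytes were lowest, and states overlapped because the differentiated osteocytes stood among the reprogrammed arrays. Differentiated cells differed from MSCs by -0.50 (SE 0.52; adjusted p = 0.766) and reprogrammed cells from differentiated cells by 0.82 (SE 0.46; adjusted p = 0.332). With the array set as a block these were -0.40 and 0.62. Leaving out differentiated adipocytes moved the first to 0.00033 (adjusted p = 0.9998) and the second to 0.31 (adjusted p = 0.583). Leaving out differentiated osteocytes moved the first to -0.99 (adjusted p = 0.385) and the second to 1.30 (adjusted p = 0.128). The largest gap in the order was that of 1.04 between the differentiated chondrocytes and the adipocytes below them (residual SD 0.56). A second probe of Dusp6, ILMN_1248537, had the same low value on the differentiated adipocytes, at 7.05 against 7.73 to 9.01 elsewhere, and the third stayed under 6.

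Spry4 and Spry2 reached the level of 6 on the differentiated adipocytes alone. Spry4 read 6.88 there. It read 3.85 and 3.90 on the MSC arrays, 5.02 and 1.58 on the differentiated chondrocytes and osteocytes, and 4.71, 4.12 and 4.10 on the reprogrammed adipocytes, chondrocytes and osteocytes. Against MSCs the adipocyte value is at least 1.67-fold higher. Spry2 read 6.26 on the differentiated adipocytes and 4.91 to 5.80 on the other 7 arrays, a difference of at least 1.16-fold from MSCs. Spry2 there was 0.37 above MSC d0 on the offset scale, less than the 0.58 between the MSC arrays. The differentiated adipocyte array also held all 7 adipocyte markers, with a summed linear level of 79405 against 7279 to 20631 elsewhere, and their part in these values was not tested.

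Lineage by lineage there is 1 array per cell type, so differences were read by size alone, as at least 2-fold (a log2 difference of 1 on the offset scale, against both MSC arrays where these are the reference). This used 9069 genes that reached 6 on at least 1 array, 7 of them members. Fgfr3, Spry2 and Spry4 are among the 7 only through the array in which each is high, so the counts of members are descriptions and nothing is read from them against the share of all genes. In differentiated adipocytes 4 of the 7 differed from MSCs by this much: Fgfr2 at 3.58 and Spry4 at 2.12 were higher, Fgf7 at -3.09 and Dusp6 at -1.51 lower. Of all genes 19.6% did. In differentiated chondrocytes Fgfr2 at 5.25 and Fgfr3 at 2.11 were higher and Fgf7 at -2.75 lower, 3 of 7 members where 9.96% of genes differed. In differentiated osteocytes Fgfr2 at 3.66 and Fgf7 at -1.53 did so, 2 of 7 where 7.0% of genes did. Against 6.32, Fgfr2 was at least 10.2-fold higher in adipocytes, 32.6-fold in chondrocytes and 10.8-fold in osteocytes. The Spry4 and Fgfr3 differences rest on MSC values under 6, and their bounds, given above, are under 2-fold.

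The reprogrammed arrays lay nearer to the MSC arrays. No member differed by 2-fold in reprogrammed adipocytes, where 1.01% of genes did. In reprogrammed chondrocytes Fgfr2 alone did, at 1.24 (at least 2.03-fold), where 0.154% of genes did, and in reprogrammed osteocytes Fgfr1 alone did, at 1.47 (2.76-fold), where 1.27% did. The MSC arrays themselves differed by 2-fold at 14.4% of genes, a share from 1 pair of arrays. The shares above needed 2-fold against both MSC arrays, a stricter rule, so they cannot be compared with it. None of the 7 members differed by 2-fold between the MSC arrays. Of these, Fgfr2, Fgfr3, Spry2 and Spry4 were under 6 on both, so nothing is read from them. Among the other 3, the largest gap was that of Fgf7, lower on MSC p4 by 0.63.

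Set against the differentiated array of the same lineage, Fgfr2 was lower and Fgf7 higher in all 3 reprogrammed arrays. For Fgfr2 the differences were -3.00 in adipocytes, -4.01 in chondrocytes and -3.34 in osteocytes, and for Fgf7 they were 2.95, 2.72 and 1.41. In adipocytes Fgfr1 at -1.10, Spry4 at -1.66 and Dusp6 at 1.54 also passed 2-fold, which makes 5 of 7 members where 33.2% of genes did. In chondrocytes Fgfr3 at -1.61 and Dusp6 at 1.0 did, which makes 4 of 7 where 19.4% did. In osteocytes Fgfr2 and Fgf7 were the 2 of 7, where 19.0% did. The Spry4 and Fgfr3 differences again rest on values under 6 on the reprogrammed side, with bounds of at least 1.67-fold and at least 1.13-fold. Each of these comparisons uses 1 pair of arrays, so their shares cannot be compared with those against both MSC arrays. These comparisons share arrays with the comparisons against MSCs, so their values mirror each other in part.

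**Figure D4:**
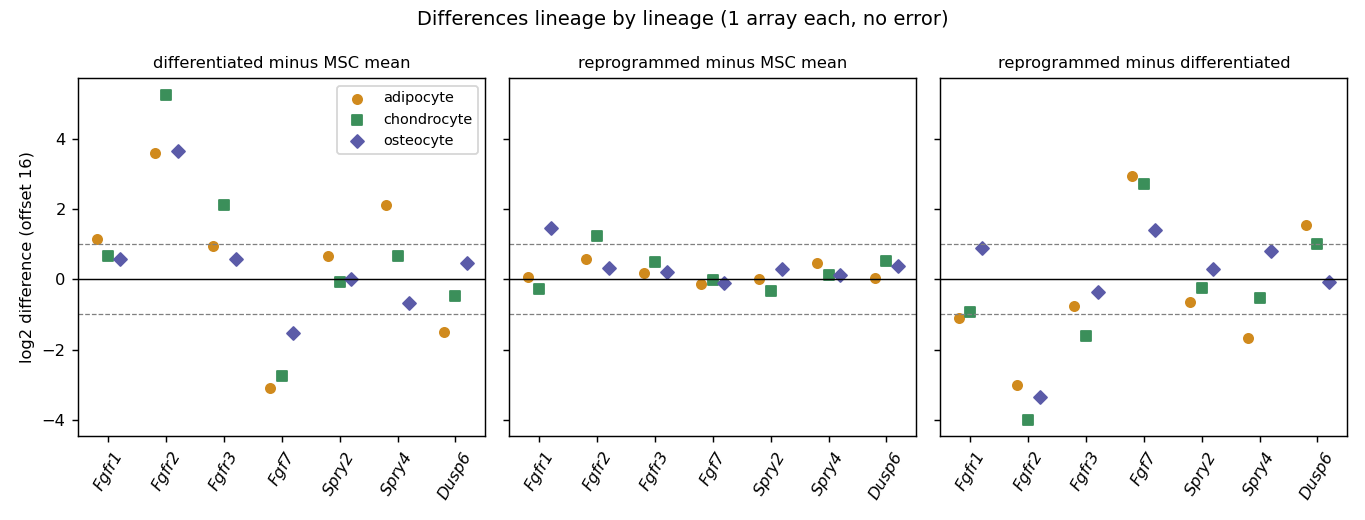
Log2 differences on the offset scale (y axis) for 7 genes (x axis), by lineage, with 1 array per cell type and dashed lines at 1 and -1. In the left panel Fgfr2 lies between 3.58 and 5.25 and Fgf7 between -3.09 and -1.53; in the middle panel the values beyond 1 are Fgfr1 in osteocytes (1.47) and Fgfr2 in chondrocytes (1.24).

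Groups of arrays that do not overlap are common in so small a design. Differentiated cells and MSCs did not overlap at 3 of the 4 tested members (Fgfr1, Fgfr2 and Fgf7), against 24.1% of genes. Reprogrammed and differentiated cells did not overlap at Fgfr2 and Fgf7, against 29.9% of genes, and reprogrammed cells and MSCs at Fgfr2 alone, against 13.6%.

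Genes with the most similar pattern were sought for Fgfr2 and Fgf7, the members with an SD over the 8 arrays of at least 1 (2.04 and 1.33). Likeness was the root mean square difference of values centred on their mean over 8 arrays. For Fgfr2 the nearest were the receptor kinase Mertk (0.64), the glucocorticoid receptor co-chaperone Fkbp5 (0.70) and the Wnt pathway gene Axin2 (0.73). Fkbp5 read 11.43, 11.38 and 11.77 on the differentiated adipocytes, chondrocytes and osteocytes and 6.76 to 7.49 on the other arrays. Mertk (4.89 to 5.82) and Axin2 (0 to 4.03) were under 6 on all MSC and reprogrammed arrays. Part of their likeness thus lies under the usable level, where the offset flattens values. For Fgf7 they were Marcksl1 (0.35), the kinesin gene Kif5c (0.40) and Hs6st2 (0.41), an enzyme that sulfates heparan sulfate, the co-receptor of FGFs. Kif5c was under 6 on all differentiated arrays, at 0, 3.21 and 5.20 on adipocytes, chondrocytes and osteocytes. Hs6st2 read 10.88 and 10.15 on the MSC arrays, 8.23, 7.04 and 9.61 on the differentiated adipocytes, chondrocytes and osteocytes, and 10.71 to 10.75 on the reprogrammed arrays.

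The rest of the pathway was followed in 6 lists with 86 genes, of which 78 had a probe and 45 were tested. Limma called none of the 45 in differentiated minus MSC (7 at an unadjusted p under 0.05, where 10.4% of all genes were), 1 in reprogrammed minus differentiated (7 unadjusted, where 22.6% of all genes were) and none in reprogrammed minus MSC (1 unadjusted, where 0.325% were). In differentiated cells 36 of the 45 were lower than in MSCs, with a median difference of -0.40, where 50.3% of all genes were lower and their median was -0.0033. Reprogrammed minus differentiated had a median of 0.40, against -0.037 over all genes.

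Of 13 tested genes that ERK signalling induces, 12 were lower in differentiated cells than in MSCs (median -0.82), where 50.3% of all genes were. In reprogrammed minus differentiated cells 12 were higher (median 0.87), where 52.4% of all genes were lower. Limma gave 4 and 2 of the 13 an unadjusted p under 0.05, against 10.4% and 22.6% of all genes. Both counts use the same differentiated arrays, so they mirror each other in part. The lower mean of Ccnd1 rested on the differentiated adipocytes (8.92), with 12.14 and 12.83 on the chondrocytes and osteocytes and 12.14 and 12.11 on the MSC arrays. The first count uses the mean of both MSC arrays, and none was made against MSC d0 alone. Ier3 read 8.52, 11.13 and 11.36 on the differentiated adipocytes, chondrocytes and osteocytes, against 10.06 on MSC d0 and 11.42 on MSC p4. Etv4 read 4.45, 7.44 and 6.56 there, against 5.89 and 6.67. Egr1, Egr2, Egr3 and Phlda1 lay below both MSC arrays on every differentiated array. The 1 called gene was the transcription factor Egr3, which read 10.44 and 10.09 on the MSC arrays, 7.35, 6.18 and 7.59 on the differentiated adipocytes, chondrocytes and osteocytes, and 9.96, 9.43 and 9.14 on the reprogrammed ones. It rose by 2.32 from differentiated to reprogrammed cells (SE 0.38; adjusted p = 0.0473). The differentiated arrays lay below all others. Over 16 alternatives the limma adjusted p of Egr3 ran from 0.034 to 0.9996 and its difference from 1.94 to 2.67. The call was lost under 13 of them, among these the array set as a block (2.67) and lineage as a block (2.32, adjusted p = 0.0952). These included leaving out differentiated chondrocytes (1.94, adjusted p = 0.0542) or osteocytes (2.56, adjusted p = 0.0571), any 1 reprogrammed array (2.10 to 2.50, adjusted p = 0.16 to 0.241) or either MSC array (2.32, adjusted p = 0.0642).

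Of 14 tested heparan sulfate proteoglycans and their enzymes, 12 were lower in differentiated cells than in MSCs (median -0.47), where 50.3% of all genes were. Limma gave 1 of the 14 an unadjusted p under 0.05, against 10.4% of all genes. The widest differences in reprogrammed minus differentiated cells were those of Hs6st2 at 2.36 (SE 0.56; adjusted p = 0.0868), of the syndecan Sdc3 at 1.77 (SE 1.76; adjusted p = 0.583) and of the glypican Gpc1 at 1.06 (SE 1.34; adjusted p = 0.675). Sdc3 and Gpc1 had no common level in the differentiated arrays, at 12.52 and 13.79 in chondrocytes against 4.83 and 8.82 in adipocytes and 4.31 and 8.56 in osteocytes.

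Other inhibitors had a median of -0.23 over 8 tested genes in differentiated minus MSC. The ERK phosphatase Dusp5 differed by 1.75 in reprogrammed minus differentiated cells (SE 0.43; adjusted p = 0.0882), the phosphatase Dusp7 by 0.94 (adjusted p = 0.251) and the phosphatase Dusp1 by -0.91 (adjusted p = 0.377). The 8 tested adaptors and members of the Ras-MAPK cascade had a median of -0.10 in differentiated minus MSC and of -0.06 in reprogrammed minus differentiated. The largest differences in the second contrast were those of the kinase Araf at -0.89 (adjusted p = 0.199), the adaptor Shc1 at -0.75 (adjusted p = 0.186) and the GTPase Nras at 0.66 (adjusted p = 0.235). Among 4 other receptors and co-receptors, the decoy receptor Fgfrl1 alone was tested. It read 8.21 and 7.88 on the MSC arrays, 11.23, 9.30 and 9.24 on the differentiated adipocytes, chondrocytes and osteocytes, and 8.21 to 8.61 on the reprogrammed arrays. It differed by 1.82 between differentiated cells and MSCs (SE 0.57; adjusted p = 0.352). Of 18 other ligands and carriers, the binding protein Fgfbp3 alone was tested, with a difference of 0.15 in reprogrammed minus differentiated cells (adjusted p = 0.779).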

How the data were processed

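The deposited log2 values of 8 arrays were analysed. How the authors corrected and normalized them is not given in the sources used here. Above a log2 value of 2 the sorted values of the arrays lay within 0.0175 of each other. A second table, before normalization, had 16 value columns whose headers match no sample label, and it was not used. Symbols came from the platform annotation (34885 of 45281 probes with 1 symbol, 18 with several), updated through Entrez identifiers for 34807 probes with RefSeq's GRCm38.p6 table.

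Values were changed to log2(2^x + 16). Genes needed a log2 value of 6 on at least 2 arrays, with the probe of highest mean per gene (8317 genes). States were compared with limma 3.58.1 in R 4.3.3 in a fit of all 8 arrays (two-sided tests, Benjamini-Hochberg adjustment over all genes, threshold 0.05). The fit was tested on simulated data that held no difference between array sets or lineages. That test cannot speak to the overlap of state and array set. All members are named. Pathway genes are named if called, or else as the 3 widest of their list. Members, lists, level and offset were chosen with earlier results of these data known. The number of arrays limits precision. No pairing of replicates is given in the labels.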

Additional observations from a re-analysis of the deposited data

Results flagged for a closer look

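Fgfr1 and Dusp6 had differences of opposite sign in different lineages, though some of these differences were very small. With 1 array per cell type, none of these differences was tested. Fgfr1 lay above both MSC arrays in reprogrammed osteocytes and below both in reprogrammed chondrocytes, a gap of 1.74 on the log2 offset scale. The chondrocyte side was small, at -0.48 against MSC d0 and -0.07 against MSC p4. It was higher in reprogrammed than in differentiated osteocytes and lower in reprogrammed than in differentiated adipocytes (a gap of 1.98 between these 2 differences) and chondrocytes (1.80).

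Dusp6 lay above both MSC arrays in differentiated osteocytes and below both in differentiated adipocytes, a gap of 1.98. It was higher in reprogrammed than in differentiated adipocytes (1.54) and chondrocytes (1.0). In osteocytes the difference was only -0.09. The gaps of 1.63 for adipocytes against osteocytes and 1.10 for chondrocytes against osteocytes thus came almost wholly from the adipocytes and chondrocytes.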

How the results depend on the processing

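Alternatives were offsets of 4 and 64, no level filter, a log2 value of 6 on at least 1 array, all probes, the array set or lineage as a block, a fit on the arrays of 2 groups and leaving out each array. Of 230 values of the 4 tested genes and Egr3 under them, 198 kept direction and side of the threshold. Some alternatives are the same fit for a contrast, so the counts hold repeats. In differentiated minus MSC this is so for leaving out MSC p4 and the set as a block. In reprogrammed minus differentiated it is so for leaving out either MSC array and the fit on 2 groups. In reprogrammed minus MSC it is so for leaving out MSC d0 and the set as a block. The count of members called in reprogrammed minus differentiated, 1 as reported, was 2 with an offset of 64 and with all probes (Fgf7 added), 0 with either block, and 0 to 2 when arrays were left out, where it was 0 without any 1 of the reprogrammed arrays. Differentiated minus MSC had 0 members called and 0 to 1 when arrays were left out: Fgfr2 without differentiated adipocytes or chondrocytes and Fgf7 without osteocytes (-2.92, adjusted p = 0.0396). Over all genes the 54 calls became 116 with all probes, 0 and 7 with the set or lineage as a block, 2 without any 1 reprogrammed array and 216 without differentiated adipocytes. With all probes the count is of 14082 probes rather than 8317 genes, here and in the next sentence. The 5 calls of differentiated minus MSC became 57 without differentiated adipocytes, 2 without MSC d0 or any 1 reprogrammed array, 1 without MSC p4 or with the set as a block, 2 and 10 with offsets of 4 and 64, 8 with all probes, 3 with no filter or the filter on 1 array, and 0 on the arrays of 2 groups (510 with an unadjusted p under 0.05). Egr3 lost its call under 13 of 16 alternatives.

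Directions turned for small, uncalled differences. Dusp6 in differentiated minus MSC ran from -0.99 to 0.00033 when arrays were left out, the latter without differentiated adipocytes. Fgfr1 was 0.037 in reprogrammed minus differentiated in the fit with the set blocked, and in reprogrammed minus MSC it ran from -0.11 (without reprogrammed osteocytes) to 0.76. Fgf7 in reprogrammed minus MSC ran from -0.41 to 0.22 when arrays were left out. The 0.22 came without MSC d0, which is the same fit as the set blocked. By size, an offset of 64 left 0 members at 2-fold in reprogrammed chondrocytes and 0 in reprogrammed osteocytes against MSCs, and 2 in reprogrammed against differentiated chondrocytes. A larger offset shrinks differences of dim probes by construction, and for the other changes the cause was not tested.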

Other observations

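The differentiated adipocyte array held further FGF pathway genes at levels apart from the other 7, picked after their values were seen and given without a test. Fgf21, a hormone made by liver and fat, read 7.15 there and 2.32 to 4.68 elsewhere. The phosphatase Dusp4 read 10.99, against 8.47 to 9.31 on the others. The cyclin Ccnd1, which ERK signalling induces, read 8.92, against 12.11 to 12.83.

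The inhibitor Il17rd, a membrane protein that damps FGF receptor signalling, differed between the arrays of 1 cell type label. It read 10.64 on MSC d0 and 7.38 on MSC p4, 6.67, 6.91 and 9.59 on the differentiated adipocytes, chondrocytes and osteocytes, and 6.49, 8.84 and 9.14 on the reprogrammed adipocytes, chondrocytes and osteocytes. Osteocytes read higher than the other lineages in each state, but by less than the MSC arrays differed. Among reprogrammed cells the chondrocytes were close below them, at 8.84 against 9.14.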
